A study of Mus musculus with 3 samples.

Results

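The splicing factors and RNA-binding proteins described here are the 92 genes, of 24411 in the deposited tables, whose symbols start with Srsf, Sf3a, Sf3b or Rbm and a digit, or with Hnrnp or Snrp. They were picked by a rule on the symbol, and the rule was chosen with earlier results of these data known. They comprise 11 Srsf, 20 Hnrnp, 9 Sf3, 12 Snrp and 40 Rbm genes, of which 90 are protein-coding in the GENCODE M21 annotation of the GRCm38 mouse genome. The other two, Rbm3os and Rbm46os, are annotated as antisense RNAs. RNA sequencing libraries were available for 1 group with 3 replicates, numbered 1, 2 and 3 in the labels. The group is microglia, the resident immune cells of the brain, from C57BL/6J mice aged 6 to 8 weeks. The mice carried floxed Mir137 alleles and a tamoxifen-inducible Cre (Mir137loxP/loxP;Tmem119-CreERT2, called cKO). Tamoxifen was injected on 7 consecutive days at 7 to 8 weeks of age, and the label adds treatment with a Pu.1 inhibitor. All 3 libraries share the genotype, the tamoxifen and the inhibitor, so no effect of any of them can be read from the values below. The design text speaks of 4 mice and does not say which animals gave which replicate. The spread between libraries may therefore be partly technical, and the tests below measure only the spread between these samples.

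Splicing removes introns from pre-mRNA in the spliceosome, which is built from small nuclear ribonucleoproteins (snRNPs). The Snrp genes encode the Sm proteins that form a ring around the small nuclear RNAs, and proteins specific to the U1 and U2 particles. The Sf3 genes encode the SF3a and SF3b complexes, which hold the U2 particle on the branch point. SR proteins (Srsf) mostly bind exonic enhancers and favour the use of nearby splice sites, whereas hnRNP proteins (Hnrnp) coat nascent RNA and often oppose them. The Rbm genes share a name and an RNA-binding motif rather than a function, and include spliceosome components, regulators of alternative exons and tissue-restricted factors.

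The alleles delete miR-137, a microRNA that pairs with messenger RNAs through its seed, so its sequence and its matches among the splicing genes are shown before the levels. The RefSeq entry lies at chr3:118433901-118433923 on the plus strand (GRCm38.p6). It is printed with the seed, bases 2 to 8, in capitals.
miR-137-3p: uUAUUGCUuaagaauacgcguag
The 3′ UTR of 1 GENCODE M21 transcript per gene was searched on its own strand for AGCAATA, the complement of the seed, and for AGCAATAA, the same match followed by an A. Of the 90 protein-coding splicing genes, 10 (11.1%) held AGCAATA, and the same was true of 8.90% of 10891 genes detected in these libraries. AGCAATAA was present in 5 of the 90 (5.56%), against 3.94% of the detected genes. The matches fell in 4 Hnrnp, 4 Rbm and 2 Srsf genes and in no Sf3 or Snrp gene, whose median 3′ UTRs of 524 and 397.5 nt were shorter than the 968 nt of detected genes. A match is a string of letters, not a tested site, and the libraries hold no wild-type reference for these genes. The sites with the longer match are printed with it in capitals, together with the match in Hnrnpk, the Hnrnp gene with the highest level.
Hnrnpa3: agctaaacaAGCAATAAaagggggaa
Hnrnpdl: ttataaagaAGCAATAAtcaagacag
Hnrnpr: atctgttgaAGCAATAAtgatatttt
Rbm19: tgagaactaAGCAATAAacggcagag
Srsf6: tctcagaccAGCAATAAattattcag
Hnrnpk: gcggtggggAGCAATActacaagag
The first base of the match is base 1554 of the 3′ UTR in Hnrnpa3, 336 in Hnrnpdl, 4296 in Hnrnpr, 964 in Rbm19, 566 in Srsf6 and 804 in Hnrnpk. In Hnrnpr the annotated 3′ UTR of 19419 nt is longer than the effective length of 7693 nt recovered from its count and FPKM, so it is not known whether the match was in the RNA measured. Shorter matches were also found in Rbm12, Rbm24, Rbm44 and Srsf1, and Hnrnpr held a second one.

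PU.1, the transcription factor named in the treatment and encoded by Spi1, binds purine-rich ETS motifs and directs the myeloid lineage. RefSeq promoters, running from 250 bases before to 50 bases after a transcription start, were matched for 78 of the 92 genes. They were searched on both strands. A gene was counted when any of its start windows held the motif, so genes with more windows had more chances of a match. The PU.1-type motif GAGGAAGT was present in 3 of the 78 (3.85%), against 3.99% of 8999 detected genes and 3.62% of 17224 genes in the table with a promoter. The share among the splicing genes was thus close to that of the detected genes. The 3 promoters are printed with GAGGAAGT or its reverse complement ACTTCCTC, and the general ETS motif CCGGAAGT, in capitals. Hnrnpf is at chr6:117900090-117900389, Hnrnph2 at chrX:134600929-134601228 and Sf3a1 at chr11:4160104-4160403, all GRCm38.p6, plus strand.
Hnrnpf: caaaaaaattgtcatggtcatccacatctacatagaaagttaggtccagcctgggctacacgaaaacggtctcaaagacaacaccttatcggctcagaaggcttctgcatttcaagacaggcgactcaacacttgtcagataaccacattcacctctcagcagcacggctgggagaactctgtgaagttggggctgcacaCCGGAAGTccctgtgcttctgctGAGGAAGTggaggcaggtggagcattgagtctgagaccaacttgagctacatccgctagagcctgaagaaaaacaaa
Hnrnph2: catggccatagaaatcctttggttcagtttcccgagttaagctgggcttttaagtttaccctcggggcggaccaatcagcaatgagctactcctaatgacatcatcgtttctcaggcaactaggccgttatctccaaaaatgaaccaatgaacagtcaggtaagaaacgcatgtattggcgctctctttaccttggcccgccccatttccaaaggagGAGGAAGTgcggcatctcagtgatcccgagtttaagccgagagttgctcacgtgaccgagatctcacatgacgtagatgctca
Sf3a1: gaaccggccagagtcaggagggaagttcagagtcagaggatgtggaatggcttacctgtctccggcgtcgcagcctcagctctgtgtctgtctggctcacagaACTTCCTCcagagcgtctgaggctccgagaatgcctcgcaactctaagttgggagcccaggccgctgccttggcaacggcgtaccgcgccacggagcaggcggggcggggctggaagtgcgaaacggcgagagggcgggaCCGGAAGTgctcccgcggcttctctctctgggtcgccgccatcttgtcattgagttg
Hnrnpf has 4 RefSeq start windows and only the one shown held the motif. CCGGAAGT, a motif of ubiquitous promoters, was present in 10 of the 78 genes (12.8%). It was present in 9.26% of detected genes and 5.65% of all genes in the table with a promoter. GCATGCGC, the core of an NRF1 motif, was present in 4 (5.13%), against 6.02% and 4.00% in the same comparisons. TATAAA was present in 12 (15.4%), against 8.67% and 14.2%. A match describes these letters, and its absence says nothing about a factor.

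Library totals ran from 15710750 to 17180404 estimated counts. All 12 microglial markers were detected, with a summed level of 15438 to 16438 FPKM (fragments per kilobase of transcript and 1000000 fragments), P2ry12 and Cx3cr1 among them. Markers of other cells were present too. All 10 neutrophil markers summed to 14168 to 15645 FPKM, all 10 endothelial markers to 2551 to 2736 FPKM, and all 8 choroid plexus and ependymal markers to 6299 to 7179 FPKM. S100a8 and S100a9, at means of 8800 and 4056 FPKM, made up most of the neutrophil sum. As a mean share of the estimated counts, the microglial list took 3.27% and the neutrophil list 0.333%. The endothelial list took 0.424% and the choroid plexus and ependymal list 0.843%. The 8 astrocyte markers and the 8 oligodendrocyte markers were all detected, at 202 to 226 and 294 to 351 FPKM in sum. Of 10 neuronal markers 3 were detected and Nefl had no count, and of 9 lymphocyte markers 4 were detected. Spi1 had 187, 191 and 182 FPKM and Tmem119, the gene that drives the Cre, had 172, 173 and 155 FPKM. The Mir137 row had no count in any library, which checks nothing without a library of intact Mir137. The splicing genes are active in most cell types, so how much of each level comes from microglia was not tested. In such bulk RNA, fewer cells of a type and less RNA per cell cannot be told apart.

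Nearly all of the splicing genes were expressed. A deposited level of at least 1 FPKM in every library was reached by 83 of 92, against 47.8% of all genes in the table. The mean was at least 10 FPKM for 65 genes (70.7%) and at least 100 FPKM for 14 (15.2%). The same shares were 28.0% and 3.12% of all genes in the table, and 58.6% and 6.52% of detected genes. The median over the 92 genes of log2(FPKM + 1) was 4.97 ± 0.01 (SD, n = 3 libraries), against 0.95 ± 0.02 for all genes and 3.82 ± 0.0031 for detected genes. Together they took 0.951%, 0.941% and 0.980% of the estimated counts of libraries 1, 2 and 3. The order of the families per unit of length was Hnrnp (6.05 ± 0.03), Srsf (5.90 ± 0.01), Snrp (5.46 ± 0.12), Sf3 (5.09 ± 0.04) and Rbm (3.27 ± 0.05), as medians of log2(FPKM + 1) with their SD over 3 libraries. As a share of the counts, Hnrnp took 0.392%, Rbm 0.237%, Srsf 0.173%, Sf3 0.127% and Snrp 0.0277%. The plot of levels by gene shows every member in each library.

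**Figure D1:**
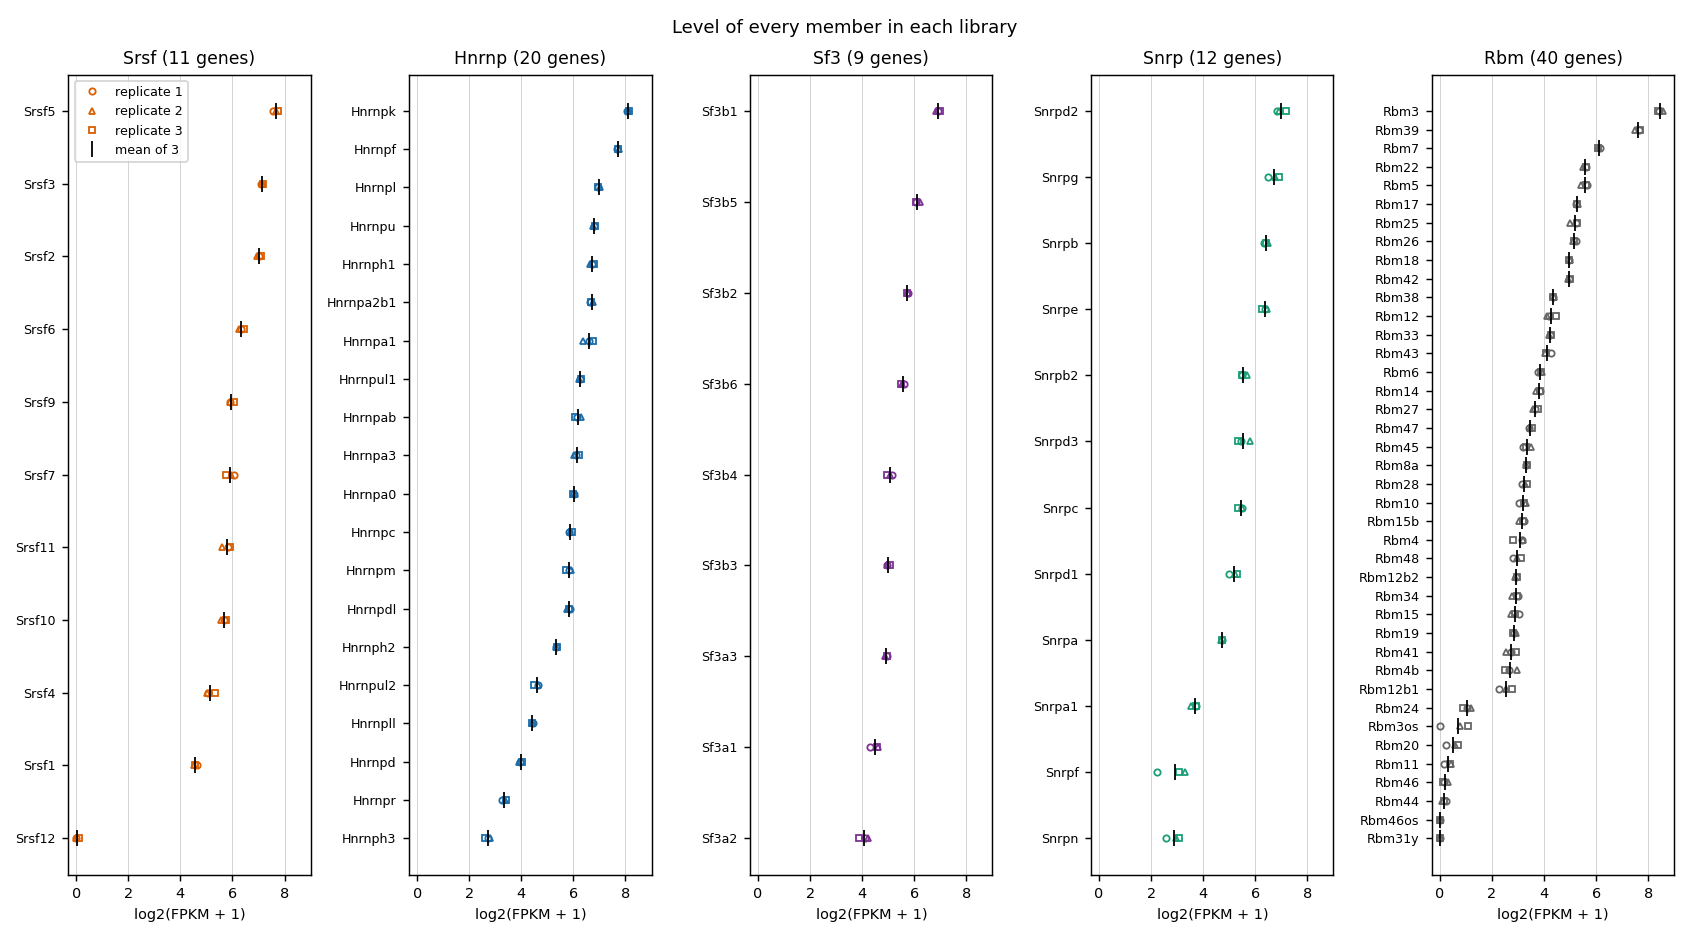
Deposited level of each of the 92 genes on the log2(FPKM + 1) scale, 1 panel per family, 1 point per library (n = 3). Most rows of the Hnrnp, Srsf, Sf3 and Snrp panels lie well to the right of the median of all genes at 0.95, whereas the Rbm panel spans the range from Rbm3 at 348 FPKM to 2 genes with no count.

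Srsf genes encode the SR proteins, and 10 of 11 were detected. Srsf5 (chr12:80945504-80950507, plus strand) had the highest level, at 187, 203 and 216 FPKM in libraries 1, 2 and 3. Its 3 values lay above every value of the next gene. Srsf3 (chr17:29032628-29043373, plus strand), which also couples splicing to mRNA export, had 137, 138 and 142 FPKM. Srsf2, which binds exonic enhancers and is mutated in human myeloid neoplasms, had 129.6, 121 and 137 FPKM, overlapping the range of Srsf3. Srsf6, one of the genes with a longer miR-137 match, had 78.7, 74.3 and 85.2 FPKM. These 4 levels were followed by Srsf9, Srsf7, Srsf11 and Srsf10 with means of 50.1 to 61.4 FPKM, each overlapping its neighbour in that order.

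The founding SR protein gene, Srsf1, was the lowest of the detected Srsf genes. It had 23.8, 22.2 and 22.7 FPKM, and the ratio of Srsf5 to Srsf1 was 8.86 ± 0.88 per length (SD, n = 3). Because Srsf1 has an effective length of 5136 nt and Srsf5 one of 1262 nt, the same pair differed by 2.18 ± 0.22 in counts. Srsf12 was the one Srsf gene not detected, with 0, 0 and 3 counts. A count of 0 allows up to 3 counts, here 0.175 and 0.191 counts per 1000000 (CPM) in libraries 1 and 2. These limits, like the others given for counts, cover counting error only.

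SR protein genes are known in mammals for regulating their own mRNA through alternative exons that expose it to nonsense-mediated decay. GENCODE M21 lists a transcript of the nonsense-mediated decay class for 9 of 11 Srsf genes (81.8%) and 36 of all 90 protein-coding splicing genes (40.0%), against 29.2% of detected protein-coding genes. A transcript with a retained intron is listed for 62 of the 90 (68.9%), against 60.5%. The deposited values are per gene, so the share of such transcripts in these libraries was not measured.

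Hnrnp genes were detected without exception, 20 of 20. Hnrnpk (chr13:58391142-58403343, minus strand), which binds C-rich RNA and DNA, led with 262.5, 274 and 277 FPKM. Hnrnpf (chr6:117900324-117925622, plus strand), a binder of G-rich runs, followed with 202, 212 and 209 FPKM. Their ranges did not overlap, and the 2 stood apart from the rest of the family. Hnrnpl, a CA-repeat binder that controls CD45 exons in lymphocytes, had 121, 129.8 and 122 FPKM. Hnrnpu, the scaffold attachment factor, had 111, 108 and 113 FPKM and overlapped Hnrnph1 in the next place. The core particle genes Hnrnpa1, Hnrnpa2b1 and Hnrnpc had means of 94.8 ± 13.1, 103 ± 4.22 and 57.7 ± 2.05 FPKM (SD, n = 3). The range of Hnrnpa2b1 overlapped that of Hnrnph1. Hnrnpm had a mean of 55.7 ± 3.49 FPKM.

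Paralogous Hnrnp pairs were unequal. Hnrnph1 was 2.62 ± 0.13 times as high as its paralog Hnrnph2, and Hnrnpl was 6.13 ± 0.32 times as high as Hnrnpll, a regulator of CD45 splicing in activated T cells (ratios of FPKM, SD over 3 libraries). Hnrnpul1 exceeded Hnrnpul2 by a ratio of 3.29 ± 0.27. Hnrnpd, which encodes the AU-rich element binder AUF1, reached 0.264 ± 0.011 times the level of Hnrnpdl. In counts, not per length, these ratios were 2.45 ± 0.12, 4.12 ± 0.21, 1.56 ± 0.13 and 0.692 ± 0.028 in the same order. At the foot of the family Hnrnph3 had 5.58, 5.99 and 5.02 FPKM, below the range of Hnrnpr, which had a mean of 9.18 ± 0.60 FPKM.

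Sf3 genes were detected in full, 9 of 9, with means from 15.7 to 119.9 FPKM. Sf3b1 (chr1:54985169-55027481, minus strand), whose product contacts the branch point and is the target of several splicing inhibitors, had 120.4, 114 and 126 FPKM. All its values lay above those of the next member. Sf3b5, the smallest SF3b subunit gene in effective length at 453 nt, had 65.8, 73.5 and 65.8 FPKM. Sf3b2 had 53.1, 52.6 and 51.1 FPKM, and Sf3b6, the branch-point contact also called p14, had 47.7, 45.1 and 44.3 FPKM. The SF3a genes were lower, in the order Sf3a3, Sf3a1 and Sf3a2. Sf3a2, which overlaps an antisense gene by 429 exonic nt, was the lowest with 16.0, 17.4 and 13.6 FPKM. Although the 9 proteins work in common complexes, Sf3b1 was 7.75 ± 1.37 times as high as Sf3a2 per length (SD, n = 3). Only 1 of the 8 neighbouring pairs in this family overlapped in range, that of Sf3b4 and Sf3b3.

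Snrp genes were likewise all detected, 12 of 12, and 8 of them encode Sm ring proteins. Snrpd2 (chr7:19149722-19153542, plus strand) had 113, 121 and 142 FPKM. Snrpg (chr6:86371304-86379328, plus strand) had 88.4, 106 and 120.3 FPKM. Snrpb, encoding the SmB protein, had 79.7, 89.8 and 84.3 FPKM, and Snrpe had 81.1, 86.7 and 74.5 FPKM. The ranges of these neighbours overlapped, so their order is not fixed by 3 libraries. Each ring holds its subunits in equal number, yet Snrpf was far lower than these 4, with 3.71, 8.76 and 7.46 FPKM from 34, 73 and 65 counts. The FPKM ratio of Snrpd2 to Snrpf was 21.1 ± 8.6 (SD, n = 3) and ran from 13.8 to 30.5. In counts, not per length, the same ratio was 8.22 ± 3.34.

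The imprinted gene Snrpn encodes SmN, which takes the place of SmB chiefly in neurons and heart. It was the lowest Snrp gene by mean FPKM, with 4.94, 6.81 and 7.30 FPKM, but its range overlapped that of Snrpf. Snrpb exceeded Snrpn 13.6 ± 2.3 times in FPKM. The neuronal markers had a median log2(FPKM + 1) of 0.37, 0.55 and 0.66 in libraries 1, 2 and 3, the same order as Snrpn. Their sum ran the other way, at 21.8, 21.6 and 20.3 FPKM, as did Stmn2, the highest of them, at 15.2, 14.2 and 13.4 FPKM, and Nefl was at 0. Their part in the Snrpn level was not tested. Among the genes of the U1 and U2 particles, Snrpb2 and Snrpc averaged 45.6 ± 3.59 and 42.4 ± 2.54 FPKM, Snrpa 25.4 ± 0.43 and Snrpa1 11.7 ± 1.01 FPKM (SD, n = 3).

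Rbm genes covered the widest range, and 32 of 40 were detected. Rbm3 (chrX:8138975-8145880, minus strand), a cold-inducible RNA-binding protein gene, was the highest of all 92 splicing genes at 339, 373 and 332 FPKM. It ranked 217 among all genes in the table. Its relative Cirbp, also cold-inducible and outside the name rule, had 76.3, 81.3 and 76.7 FPKM, and the ratio of Rbm3 to Cirbp was 4.45 ± 0.13 (SD, n = 3). Rbm39 (chr2:156147239-156180238, minus strand), a U2AF-related splicing factor that aryl sulfonamide drugs degrade, had 199, 180.0 and 204 FPKM. These 2 genes stood apart from the rest of the family. Rbm7, a subunit of the nuclear exosome targeting complex, had 69.6, 66.6 and 66.0 FPKM. Rbm22, a spliceosome protein of the activated complex, had 47.7, 43.5 and 47.2 FPKM and overlapped Rbm5.

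Among regulators of alternative exons, Rbm5 exceeded its paralogs Rbm10 and Rbm6 by 5.78 ± 0.98 and 3.42 ± 0.43 times (FPKM ratios, SD, n = 3). Rbm25, a factor associated with U1, averaged 34.9 ± 3.6 FPKM, and Rbm17, a 3′ splice site factor also called SPF45, 37.2 ± 1.18 FPKM. Rbm8a, which encodes the Y14 protein of the exon junction complex, averaged 8.95 ± 0.18 FPKM. Rbm15 and Rbm15b, adaptors of the RNA methylation complex, averaged 6.40 ± 0.75 and 7.83 ± 0.64 FPKM. Rbm38 and Rbm47, which also act on mRNA stability and editing, averaged 19.2 ± 0.28 and 10.04 ± 0.58 FPKM.

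The 8 Rbm genes that were not detected include the tissue-restricted ones. Rbm24, a muscle splicing factor, had 1.05, 1.3 and 0.85 FPKM, just under the limit, and the lowest detected gene, Rbm12b1, had 3.76, 4.76 and 5.73 FPKM. Rbm20, which controls titin splicing in heart, had 0.16, 0.48 and 0.60 FPKM, or 17, 48 and 62 counts. None of 6 striated muscle markers was detected, and Acta1, Myh6 and Tnnt2 had no count. Rbm44 and Rbm46, both known from germ cells, had 10, 3 and 7 counts and 7, 12 and 5 counts, and none of 6 germ line markers was detected. Rbm11, described in brain and testis, had 4, 13 and 12 counts, and the antisense RNA Rbm3os 0, 6 and 10. Rbm31y and Rbm46os had no count, which allows up to 0.175, 0.191 and 0.183 CPM in libraries 1, 2 and 3. With Srsf12, these genes and Rbm24 and Rbm20 make up the 9 that were not detected.

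The order of the splicing genes depended on whether values were taken per length. FPKM divides counts by effective length, which had a median of 544 nt over the Snrp genes, 1460 nt over Sf3, 2433 nt over Hnrnp, 2481 nt over Srsf and 2914 nt over Rbm. Sf3b1, with 5910 nt, took the largest share of the libraries of the 92 genes, 709 CPM on average, but was in place 10 by FPKM. Snrpd2, with 207 nt, was in place 8 by FPKM and 61 by CPM. Snrpg, with 113 nt, was in place 12 by FPKM and 78 by CPM. Its FPKM of 88.4 to 120.3 rested on 173, 186 and 224 counts. Sf3b5 stood at 0.572 ± 0.066 times Sf3b1 in FPKM and at 0.0439 ± 0.0049 times in counts (SD, n = 3). The FPKM of such short genes rests on few reads and on the effective length assigned to them.

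**Figure D2:**
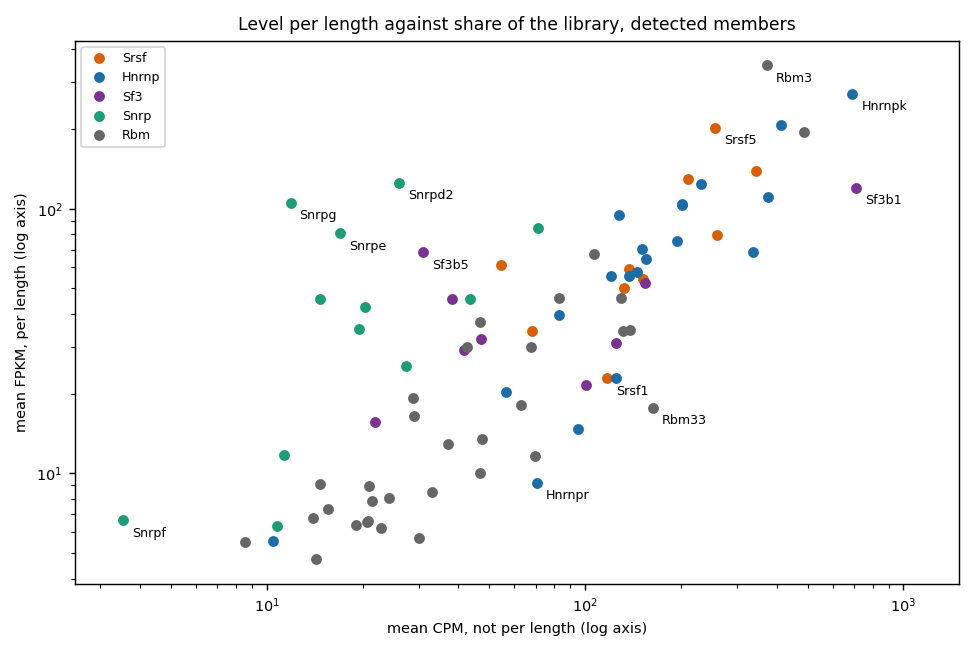
Mean FPKM of each detected gene, per length, against its mean CPM, not per length, both on log axes, with colours for the families. Short genes such as Snrpg and Snrpd2 lie far above long ones of the same CPM, and Sf3b1 lies furthest to the right at 709 CPM.

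Values repeated closely between the 3 libraries. After a filter on low counts 13246 genes were tested, and 85 of the 92 were among them. A chi-square test of homogeneity over the libraries, with Benjamini-Hochberg adjustment over all genes tested, compared each gene with counting error. It called 43 of the 85 at an adjusted p under 0.05, or 50.6%, and 41.4% of all genes tested. Without library 2 the count was 22 (18.6% of all genes tested), and without library 3 it was 28 (23.5%). A call says that libraries differed by more than counting error, not that a condition did. The highest library exceeded the lowest by a median of 1.15 times among the 43 called genes, and by under 1.5 times in 39 of them. The median biological coefficient of variation from edgeR, the spread left after counting error, was 0.067 over the 85 genes and 0.087 over all genes tested. Set against genes of the same decile of mean CPM, 43 of the 85 lay below the median of those genes. These coefficients are moderated towards the trend of all genes at a given level.

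**Figure D3:**
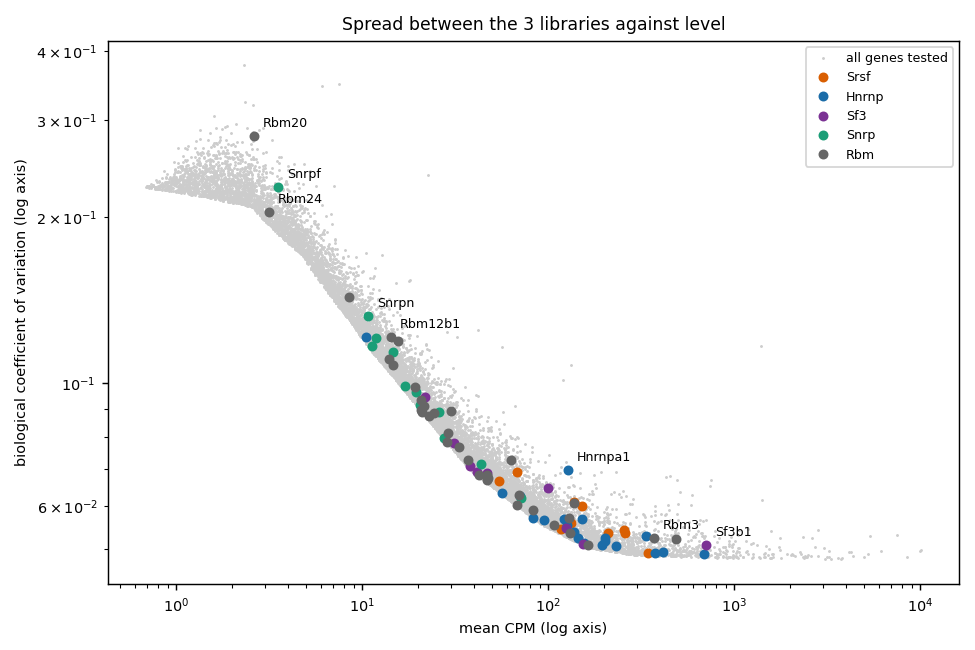
Biological coefficient of variation over the 3 libraries against mean CPM, both on log axes, for all 13246 genes tested (grey) and the 85 splicing genes (coloured by family). The splicing genes follow the cloud of all genes, with Rbm20 and Snrpf highest on the left.

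By family, calls were made for 8 of 10 Srsf, 12 of 20 Hnrnp and 7 of 12 Snrp genes, against 41.4% of all tested genes. Calls for 4 of 9 Sf3 (44.4%) and 12 of 34 Rbm genes (35.3%) were near or below that share. The share covers genes of all levels, and the test reaches smaller differences at higher counts. Against genes of the same decile of mean CPM, the coefficient of variation lay below the median for 12 of 20 Hnrnp genes. It did so for 3 of 10 Srsf, 2 of 12 Snrp, 6 of 9 Sf3 and 20 of 34 Rbm genes. Most Srsf genes shared a profile, with 7 of the 10 lowest in library 2, whether called or not (35.4% of all tested genes). Of the 8 called, Srsf2, Srsf4, Srsf6, Srsf9, Srsf10 and Srsf11 were lowest in library 2 (15.6% of all tested genes were called and lowest there). Those 6 and Srsf5 were highest in library 3 (14.4% of all tested genes). Srsf7 ran the other way, at 151, 138 and 122 CPM. The pattern was not confined to Srsf. Of the Rbm genes, 17 of 34 were lowest in library 2, and 7 of the 12 called were highest in library 3. Fewer were lowest in library 2 in the other families, with 8 of 20 Hnrnp, 2 of 9 Sf3 and 2 of 12 Snrp genes. Of all 43 called splicing genes, 24 were highest in library 3, against 1902 of the 5485 called among all tested genes. The median deviation of the 10 Srsf genes from their own means, on the log2(CPM + 1) scale, was −0.00, −0.07 and 0.10 in libraries 1, 2 and 3. After subtraction of the median of all tested genes of like length it was −0.00, −0.09 and 0.10. The differences were small, with Srsf2 at 211, 196 and 223 CPM and Srsf11 at 157, 135 and 164 CPM.

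Marker lists also differed between the libraries, not all in 1 direction. The median log2(FPKM + 1) of the 8 oligodendrocyte markers was 4.54, 4.67 and 4.23, that of the 8 astrocyte markers 4.24, 4.36 and 4.00, and that of the 10 neutrophil markers 8.11, 8.27 and 8.04 in libraries 1, 2 and 3. The microglial list had the same order, at 9.41, 9.49 and 9.39. These 4 lists were highest in library 2 and lowest in library 3. They are in FPKM, whereas the Srsf profile above is in TMM CPM. FPKM summed over all genes had the same order, at 536963, 560743 and 529085 in libraries 1, 2 and 3. The part of this scale in the order of the lists was not tested. The 10 endothelial markers, at 7.15, 7.19 and 7.26, were highest in library 3, and the 8 choroid plexus and ependymal markers, at 5.12, 4.99 and 5.07, were lowest in library 2. By summed FPKM the microglial, oligodendrocyte and astrocyte lists kept their order, whereas the neutrophil list was lowest in library 1, the endothelial list highest in library 2 and the choroid plexus and ependymal list highest in library 3. All genes of these 6 lists were detected, and their part in the Srsf profile was not tested.

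**Figure D4:**
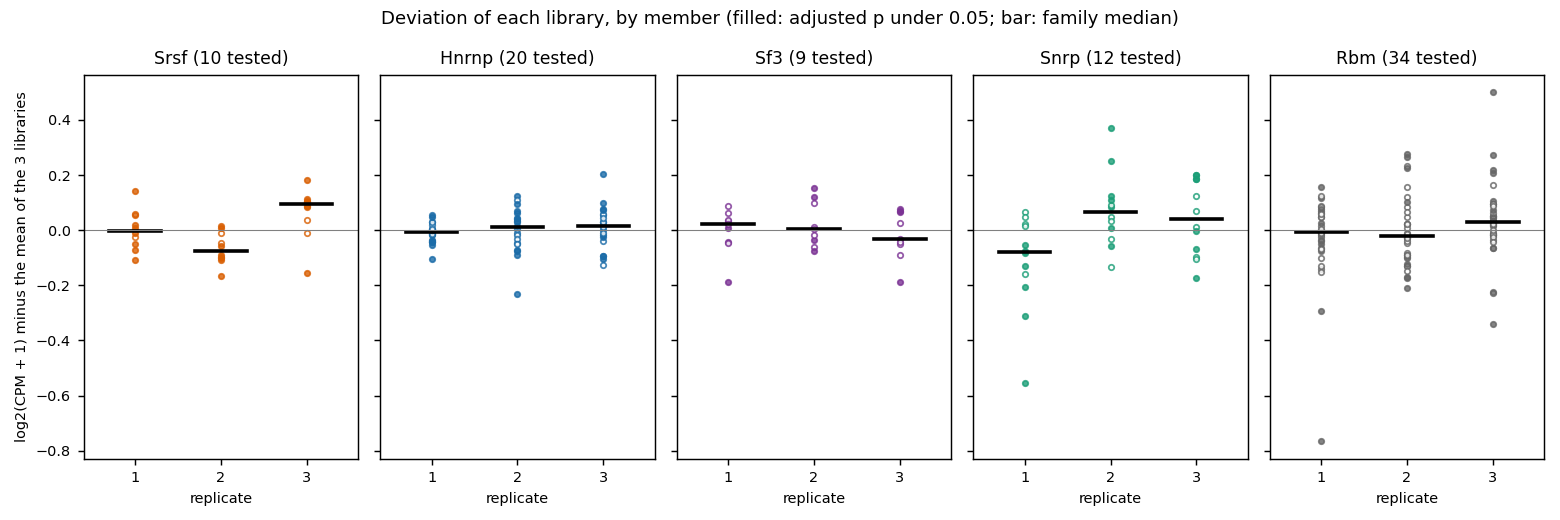
Deviation of each library from the mean of the 3 on the log2(CPM + 1) scale for the 85 tested genes, by family, with genes called at an adjusted p under 0.05 filled and the family median as a bar. The Srsf median is lowest in library 2 at −0.07 and highest in library 3 at 0.10, and the Snrp median is lowest in library 1 at −0.08.

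Of the 8 Sm ring genes, 6 were lowest in library 1, called or not (30.5% of all tested genes). The median deviation of the 8 was −0.14, 0.09 and 0.15 in libraries 1, 2 and 3, and less the genes of like length −0.12, −0.01 and 0.20. The value for library 2 thus changed sign with the comparison to genes of like length. Over all tested genes, those under 500 nt deviated by −0.03, 0.11 and −0.09 and those of at least 4000 nt by 0.01, −0.05 and 0.04, so length moved with the library. Calls were made for 6 of the 8 Sm genes (41.4% of all tested genes), namely Snrpb, Snrpd2, Snrpd3, Snrpf, Snrpg and Snrpn. Snrpd2 had 23.5, 24.8 and 29.6 CPM and Snrpg 10.1, 11.9 and 13.7 CPM, both lowest in library 1 and highest in library 3. Snrpd3 differed, with 13.8, 17.6 and 12.8 CPM. Of the 4 genes of the U1 and U2 particles, Snrpb2 was called.

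The largest spread among genes of at least 10 CPM was that of Snrpn, with a coefficient of variation of 0.132 and 8.36, 11.5 and 12.3 CPM. Next came Rbm12b1 at 0.121 (11.3, 14.3 and 17.2 CPM), Hnrnph3 at 0.121 and Snrpg at 0.121. Rbm4, an RNA-binding protein gene linked to circadian translation, had 16.7, 18.1 and 11.9 CPM, lowest in library 3. Snrpa1 had 12.2, 10.5 and 12.3 FPKM, Snrpd3 42.6, 54.5 and 39.7 FPKM, Rbm48 6.04, 6.71 and 7.67 FPKM and Rbm45 8.21, 10.1 and 8.89 FPKM. Snrpe closed the list of 10 at 0.099. All 10 had means of 10.4 to 17.0 CPM, near the limit of 10 CPM. Hnrnph3 lay below the median of genes of the same decile of mean CPM, which was 0.144. Rbm48 and Rbm45 also lay below theirs, at 0.113, and the others of the 10 lay above. Of these 10 genes, Snrpn, Rbm12b1, Snrpg, Rbm4 and Snrpd3 were called, and 5 of the 10 were lowest in library 1, 1 in library 2 and 4 in library 3. The largest ratio between libraries in a called gene was 3.82, in Rbm20 with 17, 48 and 62 counts. Snrpf, at 34, 73 and 65 counts, differed by 2.35 times.

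Some of these spreads fall on genes whose reads were divided with another gene. Estimated counts were not whole for 11 of the 92 genes, which occurs when reads could come from more than one gene. For Rbm12b1 and Rbm12b2, tandem copies on chromosome 4, the sum was whole in every library, at 543, 543 and 634 counts (tolerance 0.015). Rbm12b1 alone had 194, 225 and 282 counts and Rbm12b2 349, 318 and 352, so the split between the copies is uncertain while the sum is not. Rbm4, Rbm4b and Rbm14 on chromosome 19 summed with the overlapping Gm21992 to 1106.99, 989 and 987 counts. Their ratio of Rbm4 to Rbm4b, 1.34 ± 0.16 in FPKM (SD, n = 3), rests on the same division.

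Snrpn shared reads with Snurf, which lies on the same transcript, in whole sums of 149, 194 and 209 counts. Hnrnpa3 summed with Gm6793, listed by RefSeq as a transcribed pseudogene, to 7101, 6465 and 7038 counts, of which Hnrnpa3 held 5748, 4952 and 5890. The Hnrnpa3 level is therefore uncertain by up to the share given to that copy. Hnrnph3 summed with the antisense gene Rufy2 to 573, 474 and 488 counts. The pair overlaps by 115 exonic nt, and whether counting used strand is not given in the sources used here. Rbm48 had estimated counts that were not whole in libraries 1 and 2, so its level is uncertain too. No partner with whole sums was found for Hnrnpa1 or Srsf4.

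Other splicing genes overlap an exon of a neighbour without divided reads. Srsf2 overlaps the antisense genes Mettl23 by 460 nt and Mfsd11 by 288 nt, Hnrnpu overlaps Cox20 by 804 nt, and Rbm10 at 8.05 FPKM overlaps Ndufb11 at 109.9 FPKM by 117 nt. Rbm3 and Rbm3os share 94 nt. Without strand, reads from such partners cannot be told apart.

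Effective length was recovered from count, FPKM and library total, and the median shift of each library from library 1 was subtracted. It then moved between libraries by more than 20 nt for 14 of 78 splicing genes of at least 5 FPKM (17.9%), against 11.96% of 8703 genes. An effective length moves when RSEM-type estimates weight a gene's transcripts differently. Rbm4 moved most, with 2095, 2217 and 2022 nt in libraries 1, 2 and 3. These lengths and those of Rbm10, Rbm6 and Rbm39 are given before the subtraction. Rbm10 had 3049, 3008 and 2961 nt, Rbm6 3568, 3496 and 3498 nt, and Rbm39 2476, 2518 and 2500 nt. Of the Srsf genes, Srsf1, Srsf3, Srsf7 and Srsf10 were among the 14, with shifts of 23.1 to 30.7 nt after the subtraction. No test was made of these shifts, since transcript values were not analysed here.

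Splicing genes outside the name rule give a measure of the rest of the machinery. Of 121 such genes in 10 lists, 108 were detected and the median log2(FPKM + 1) was 4.42 ± 0.04 (SD, n = 3), against 4.97 ± 0.01 for the 92 genes. Between libraries, 43 of 113 tested were called, a share below the 41.4% of all tested genes. The helicase Ddx5 was the highest, at 455, 437 and 466 FPKM, above every one of the 92 genes. Its list of 10 spliceosomal helicases was detected in full, with Ddx39b and Dhx15 next at 138 ± 5.31 and 90.1 ± 5.07 FPKM and Dhx16 lowest at 10.96 ± 2.17. The 13 kinases, transportins and partners of SR proteins were led by the kinase Clk1 at 217 ± 9.06 FPKM, Tra2b at 102 ± 1.40 and Son at 86.1 ± 5.73, with the muscle-enriched kinase Srpk3 lowest at 4.5 ± 0.64.

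Core particle lists lay below the Snrp genes per length. The 12 other proteins of the U1, U2, U5 and U11/U12 particles had a median of 4.35 ± 0.01 on the log2(FPKM + 1) scale, led by Txnl4a at 72.0 ± 5.45, Snrnp70 at 41.1 ± 0.71 and Snrnp27 at 29.9 ± 2.81 FPKM, with Snrnp35 at 5.59 ± 0.51. The 8 LSm genes, which form the ring of the U6 particle and of mRNA decay, had a median of 4.19 ± 0.13, with Lsm3 at 34.5 ± 3.17, Lsm8 at 22.9 ± 6.22, Lsm7 at 20.8 ± 4.05 and Lsm1 at 5.91 ± 0.84 FPKM. Genes of 3′ splice site recognition were higher at 5.70 ± 0.21, led by U2af2 at 61.2 ± 3.41, Sf1 at 60.1 ± 1.18 and Puf60 at 54.2 ± 5.24 FPKM, and Zrsr1 was lowest at 6.70 ± 0.74. The 18 genes of Prp19 and tri-snRNP proteins had a median of 4.69 ± 0.07, with Syf2 at 83.0 ± 9.37, Prpf38b at 47.1 ± 1.24, Prpf8 at 40.8 ± 1.41 and Prpf4 at 7.53 ± 0.53 FPKM. The 9 other genes of the exon junction complex had a median of 4.78 ± 0.07, with Eif4a3 at 87.5 ± 5.25, Magoh at 63.5 ± 10.9, Rnps1 at 48.5 ± 3.81 and Sap18 at 7.04 ± 0.28 FPKM. All genes of these lists were detected.

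Regulators outside the rule were put into lists by the tissue they are known from, with earlier results of these data known. All 23 ubiquitous RNA-binding regulators were detected, with a median of 6.08 ± 0.03 on the log2(FPKM + 1) scale (SD, n = 3), close to the 6.05 ± 0.03 of the Hnrnp genes. Qk, a regulator best known from oligodendrocytes, had 214, 190.2 and 222 FPKM, Pcbp1 160 ± 4.85 and Mbnl1 117 ± 5.91, and Taf15 was lowest at 10.8 ± 0.53. Of 15 neuronal regulators 5 were detected, with a median of 0.77 ± 0.08. Khdrbs3 led them at 16.3 ± 1.44 FPKM, followed by Ptbp2 at 13.5 ± 1.57 and Nova1 at 4.32 ± 0.60, and Khdrbs2 had no count. Of 6 epithelial and muscle regulators 3 were detected, Celf2 at 30.9 ± 2.10, Rbpms at 14.6 ± 1.05 and Rbpms2 at 2.34 ± 0.41 FPKM, and Esrp1 was lowest at 0.033 ± 0.035.

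**Figure D5:**
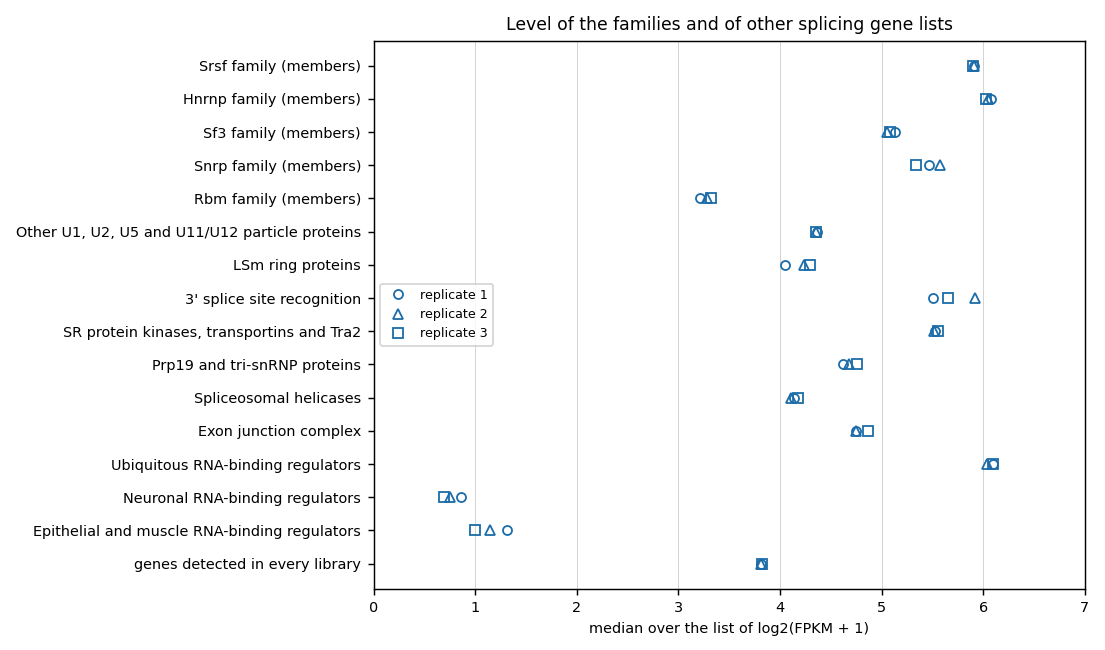
Median of log2(FPKM + 1) over each family and over each list of other splicing genes, 1 point per library (n = 3). The Hnrnp family and the ubiquitous regulators lie highest at 6.05 and 6.08, and the neuronal regulators lie lowest at 0.77.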

How the data were processed

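RNA sequencing of total RNA was deposited for 3 libraries of 1 group. The authors deposited estimated counts per gene and FPKM per gene, with a column for each replicate. The tools named in the submitters' processing notes are STAR 2.7.9a, RSEM and DESeq2, and the genome is GRCm38 (mm10). Their settings, the annotation, the library preparation, the strandedness and the inhibitor's name, dose, time and route are not given in the sources used here. Of the deposited estimated counts 4.07% were not whole, and they were rounded for tests. Columns of other samples numbered 0.

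Levels are the deposited FPKM, and logs are log2(FPKM + 1). Detection means at least 1 FPKM in every library. With 1 group no contrast between conditions exists. With edgeR 4.0.16 in R 4.3.3, genes passed the default count filter, libraries were scaled by TMM to CPM, and the tagwise dispersion was fitted with an intercept alone. Its square root is the coefficient of variation. A chi-square test compared each gene's counts between libraries given TMM library sizes, adjusted by Benjamini-Hochberg over all 13246 genes, and was tested on simulated data. Effective length is the count times 1000000000 over FPKM and library total. Partners sharing reads were sought where estimated counts summed to whole numbers within 0.015. Sequences come from RefSeq (GRCm38.p6) and GENCODE M21.

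Values in every library are given for the 4 highest and the lowest gene of each family, the 10 with the highest dispersion at 10 CPM or more, and near-identical copies. In other lists the 3 highest and the lowest are named. Other genes were named after their values were seen. The members and lists were chosen with earlier results of these data known. Libraries of cWT and of cKO without the inhibitor were not analysed here.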

Additional observations from a re-analysis of the deposited data

How the results depend on the processing

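Family medians of log2 levels depended on the scale. With a pseudocount of 0.1 they were 4.93 over all 92 genes, 5.88 for Srsf and 3.13 for Rbm. With genes of a mean of at least 1 FPKM only, they were 5.17, 5.96 and 3.66. Per count rather than per length (TMM CPM) they were 5.63 over all, 7.16 for Srsf, 7.23 for Hnrnp, 5.58 for Sf3, 4.24 for Snrp and 4.75 for Rbm, so Snrp stood last. As TPM they were 5.83, 6.78, 6.93, 5.95, 6.33 and 4.08 in the same order, with FPKM levels multiplied by 1.78 to 1.89. Of 85 genes tested, 43 were called; leaving out a replicate gave 22 to 31 calls, with 22 without replicate 2 and 28 without replicate 3, and the share over all genes was 18.6% to 28.2%. The median coefficient of variation of 0.067 was 0.058 to 0.075 when a replicate was left out. Relative log expression size factors and no count filter each gave 43 calls, and genes with whole counts gave 36. The 83 genes detected became 78 to 85 under every alternative tried, and the share of counts 0.946% to 0.965%. The comparison with genes of like length was added after the data were seen. It reversed the median deviation of the Sm ring (−0.0082), of Sf3 (−0.0105) and of Snrp (−0.0341) in library 2, and of Sf3 (0.0278) in library 3. The cause of none of these shifts was tested, beyond the scale and the fewer libraries. No paired analysis was possible because the labels give 1 group. Genes at few counts, such as Snrpf, Rbm20 and Rbm24, are limited by depth.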
